A study of Caenorhabditis elegans with 18 samples.

Results

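FBF-2 is a PUF (Pumilio and FBF) RNA-binding protein of the nematode Caenorhabditis elegans, and the comparison described here asks which RNAs were recovered with it from germlines that make oocytes. In iCLIP, ultraviolet light cross-links RNA to protein in living animals, the protein is purified through a tag, and the RNA fragments that stay attached are sequenced. Of the 18 libraries of the series, 6 were used: 3 FBF-2 libraries from oogenic adult hermaphrodites and 3 control libraries from oogenic adult hermaphrodites in which the anti-FLAG antibody was left off the beads. The FBF-2 animals carried the deletion fbf-2(q738) together with a single-copy transgene, qSi75, that encodes FBF-2 with a 3xFLAG tag. All animals were XX and were grown at 25° to early adulthood. The labels do not say from which tagged strain the control lysates came. The 3 FBF-2 libraries were sequenced in lane 2 and the 3 controls in lane 1, so the antibody and the lane cannot be told apart. RNAs entered the comparison when the FBF-2 libraries had a mean of at least 20 counts, which kept 2920 of the 26709 genes in the count table.

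FBF-1 and FBF-2 are near-identical proteins that maintain germline stem cells, largely by repressing messenger RNAs whose products push cells into meiosis, and they also help the germline switch from sperm to oocytes. PUF proteins bind short sequence elements in 3′UTRs and recruit deadenylases and other repressors. The regulators they act on include the STAR-domain protein GLD-1, the sperm-fate regulators FOG-1 and FEM-3, components of the synaptonemal complex, and FBF itself.

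The FBF-2 libraries held 227790 to 510852 counts on genes and the controls 139129 to 283777. Values are given in RPM, the counts of an RNA per 1000000 counts on genes, and 3 counts, the most that a count of 0 allows, corresponded to 5.87 to 13.2 RPM in the FBF-2 libraries and to 10.6 to 21.6 RPM in the controls. Over the RNAs tested, the Spearman correlation was 0.891 to 0.928 between FBF-2 libraries, 0.853 to 0.893 between controls and 0.472 to 0.565 between an FBF-2 library and a control. The tissue labels were checked against marker lists. Of 18 RNAs of the eggshell and oocyte surface, 18 had enough counts to be tested, whereas 1 of 25 sperm markers in the table and 0 of 31 major sperm protein genes did. Of the same 18 eggshell RNAs, 17 were also tested with the spermatogenic FBF-2 libraries, so this list does not tell the germlines apart. The major sperm protein genes together held 87.8 to 149 RPM in the FBF-2 libraries and 116 to 184 RPM in the controls. Multi-mapping reads had been removed, so low counts of such a multi-copy family are a weak check. In these animals the transgene RNA is counted together with fbf-2, so the fbf-2 count does not check the label.

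Protein-coding RNAs took a larger share of the FBF-2 libraries than of the controls. Their share of the counts on genes was 59.7%, 54.2% and 57.1% in FBF-2 replicates 1 to 3 and 42.9%, 40.7% and 39.8% in control replicates 1 to 3. Ribosomal RNA went the other way, with 29.4%, 34.4% and 31.9% in the FBF-2 libraries and 43.2%, 46.0% and 47.7% in the controls. Mitochondrial RNAs made up 2.95% ± 0.17 with FBF-2 and 3.88% ± 0.15 in the controls, and transfer RNAs 3.84% ± 0.13 and 4.60% ± 0.29 (SD, n = 3 each). In each of these 4 classes the FBF-2 and control libraries did not overlap, and the two-sided exact permutation test gave p = 0.1, the smallest that 3 libraries against 3 allow.

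An RNA was called when edgeR's quasi-likelihood test gave an adjusted p below 0.01 (Benjamini-Hochberg) and its level differed by more than 1 on the log2 scale. By this rule 1150 RNAs were higher with FBF-2 (39.4% of those tested) and 52 were lower (1.78%), which is 41.2% in either direction. The median log2 fold change was 0.70 over all RNAs tested and 1.85 over the RNAs called higher. Of the 1150 RNAs, 652 rose by 1 to 2 on the log2 scale, 345 by 2 to 3, 114 by 3 to 4, 31 by 4 to 5 and 8 by more than 5. Together they held 26.8%, 22.1% and 24.7% of the counts in the FBF-2 libraries and 6.10%, 5.58% and 5.46% in the controls. The 3 FBF-2 libraries lay above the 3 controls for 1132 of the 1150, and for 52.2% of all RNAs tested. They lay below the 3 controls for 12.7% of all RNAs tested.

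The balance of calls in the 2 directions depended on the scaling. Scaling to library size takes each library's counts on genes as equal, and 95.7% of its calls were higher. TMM normalization, which assumes that most RNAs do not differ, moved the median log2 fold change from 0.70 to 0.05 and gave 645 RNAs higher (22.1%) and 473 lower (16.2%), so that 57.7% of its calls were higher. All 645 were among the 1150, and the 52 RNAs called lower were lower with TMM too. Because direction near the median follows the scaling, the count with TMM is given beside the groups. Counts of members are to be read against 39.4% of all RNAs higher and 1.78% lower. The germline lists hold mostly autosomal protein-coding genes, for which the share higher was larger. Of all autosomal protein-coding RNAs tested, 45.9% were higher (25.8% with TMM), with a median log2 fold change of 0.93. In the germline lists described next, 0 members were called lower with library-size scaling in edgeR. At an unadjusted p under 0.05, 2 members each of the initiation-factor and eggshell lists were lower and none of the other germline lists, and DESeq2 called 1 member lower in each of the initiation-factor, PUF and Argonaute lists.

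**Figure D1:**
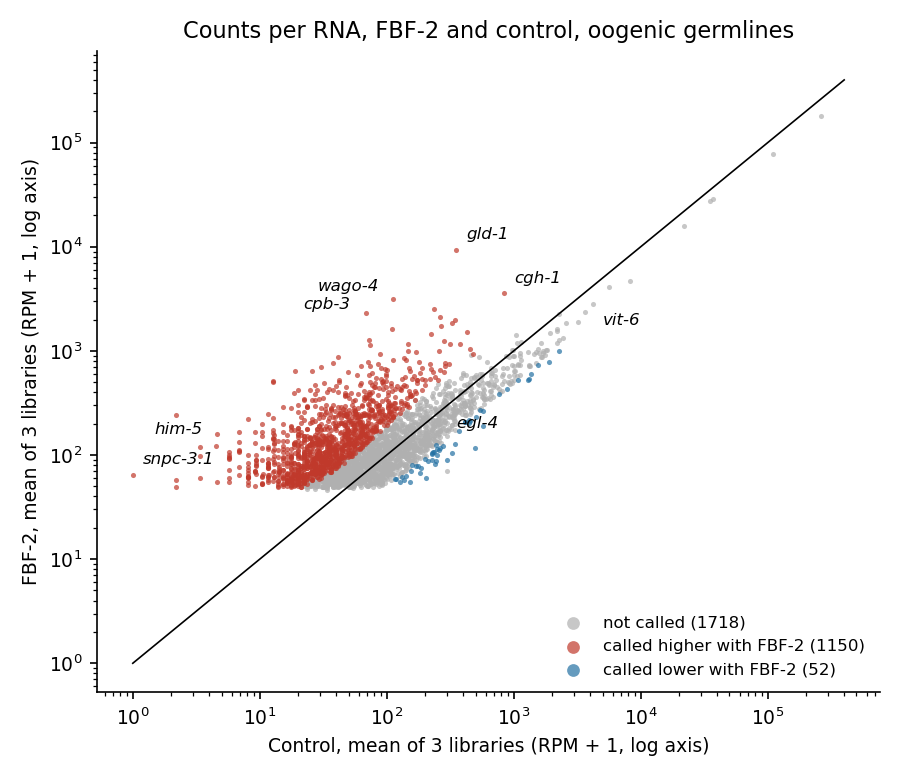
Each point is 1 of the 2920 RNAs tested, with its mean RPM in the 3 oogenic controls on the x axis and in the 3 FBF-2 libraries on the y axis (RPM + 1, log axes); the line marks equal values. The 1150 RNAs called higher sit above the line over the whole lower range of control values, gld-1 has the highest FBF-2 value among them, and the 52 called lower lie below it.

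The RNA with the most FBF-2 counts among those called higher was gld-1, which encodes the STAR-domain translational repressor that drives meiotic entry and acts in oogenesis. It held 10300, 8863 and 9021 RPM in the FBF-2 libraries and 403, 293 and 359 RPM in the controls. The lowest FBF-2 library was therefore 21.98 times the highest control library. The log2 fold change was 4.78 ± 0.13 (SE), or 27.5-fold, with an adjusted p of 1.1e-34. Per kilobase of exon, gld-1 had 4234 RPM, the highest level of any protein-coding RNA called higher, followed by cgh-1 with 1580 RPM and sip-1 with 1555 RPM. Its gene lies on chromosome I from 7695681 to 7698222 (WBcel235, plus strand).

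Established targets were enriched, with 1 exception. These are 15 RNAs for which earlier genetic and biochemical work had shown control by FBF. Of 14 with enough counts, 13 were higher (13 with TMM) and 0 lower, with a median log2 fold change of 3.51 against 0.70 over all RNAs. Among the sex-determination targets, fog-1, a CPEB-family protein that specifies sperm fate, held 119.4, 65.9 and 129 RPM with FBF-2 and 7.07, 0 and 7.19 RPM in the controls. Its controls summed to 2 counts against 133 in the FBF-2 libraries, a ratio of 31.8 with an exact 95% counting interval of 8.63 to 265. For fem-3, which also promotes sperm fate, the values were 112, 114 and 109 RPM against 56.6, 21.1 and 21.6 RPM, and the log2 fold change of 1.86 ± 0.34 was among the smallest of the established targets called. fog-3 had 20, 1 and 7 counts in the FBF-2 libraries and 1, 0 and 0 in the controls and fell below the minimum. The paper describes fog-3 as sperm-specific and did not expect it among oogenic targets.

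The FBF RNAs themselves were high in every FBF-2 library. fbf-1 held 493, 413 and 453 RPM with FBF-2 and 35.4, 24.7 and 79.1 RPM in the controls (log2 fold change 3.46 ± 0.26). fbf-2 held 360, 312 and 345 RPM against 7.07, 21.1 and 35.9 RPM (3.98 ± 0.30). The near-identical sequences of the 2 genes leave the split of reads between them uncertain, and the fbf-2 value includes the tagged transgene. gld-3, a Bicaudal-C family partner of the GLD-2 poly(A) polymerase, rose by 1.82 ± 0.28, from a mean of 47.3 RPM to 168.6 RPM. The exception was egl-4, a cGMP-dependent protein kinase, with 288, 285 and 292 RPM in the FBF-2 libraries and 255, 342 and 280 RPM in the controls. The libraries of egl-4 overlapped, and its log2 fold change was -0.06 ± 0.17 (adjusted p = 0.79). Per the paper, control of egl-4 by FBF is established only in neurons, and it was not expected among oogenic targets.

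**Figure D2:**
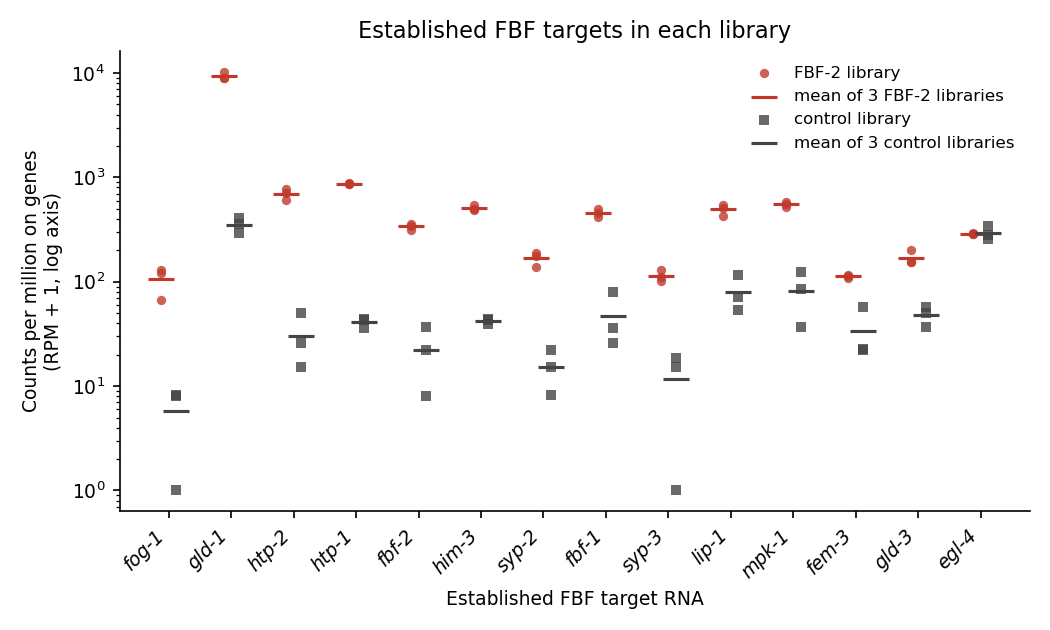
RPM + 1 (log axis) of the 14 established FBF targets tested, in each FBF-2 library (red circles) and each oogenic control library (gray squares), with bars at the means of 3. The libraries separate for 13 RNAs, from fog-1 to gld-3, and overlap for egl-4.

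The RNAs were ranked by the ratio of the lowest FBF-2 library to the highest control library, with control libraries under 3 counts set to 3. The first was dsb-1, whose product is needed to make meiotic double-strand breaks. Its exons, like those of syp-1, share bases with another annotated gene on the same strand. It had 505, 492 and 508 RPM with FBF-2 and 14.2, 14.1 and 7.19 RPM in the controls, a ratio of 22.8 between the nearest libraries. The Argonaute wago-4 followed with 3367, 2880 and 3212 RPM against 92.0, 130 and 108 RPM. Of the 12 with the highest ratio, gld-1, dsb-1, wago-4, htp-1, syp-1, plk-3 and the CPEB-family gene cpb-3 have a known or family-assigned role, fcp-1 encodes a phosphatase of the RNA polymerase II tail, and Y73B6BL.23, ZK616.5, C15C8.7 and C41G7.3 carry sequence names in the count table. Y73B6BL.23 had 632, 628 and 644 RPM with FBF-2 against 7.07, 17.6 and 28.8 RPM (log2 fold change 5.13 ± 0.27). ZK616.5, which had 726, 566 and 648 RPM against 35.4, 17.6 and 21.6 RPM, lies on chromosome IV from 5391929 to 5393578, next to htp-1 (5390189 to 5391557). cpb-3 had 2373, 2318 and 2214 RPM against 106, 45.8 and 50.3 RPM.

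Some RNAs were hardly seen in the controls. The controls held 0 to 3 counts in all for 17 of the 1150 RNAs called higher, and their fold changes rest on those few counts. snpc-3.1, chosen after its values were seen, had 54.8, 74.6 and 61.2 RPM with FBF-2 and 0 counts in the 3 controls. With 3 counts over the 3 controls as the floor its mean was at least 11.95-fold higher. With the counting error of its 72 FBF-2 counts included, the exact 95% lower limit of the ratio was 9.1. Its exons overlap a gene on the opposite strand, so its reads may not be its own. The same limit holds for 25.5% of the RNAs called higher and 25.9% of all RNAs tested, fbf-1, him-3, syp-3 and lip-1 among them.

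The 21 RNAs that the study names as frequently bound were all called higher, with library-size scaling, with TMM and with DESeq2. The study chose them on data that include these FBF-2 libraries, so their direction is not independent evidence. Their median log2 fold change was 3.02. They held 45340, 38290 and 40970 RPM in the FBF-2 libraries and 4838, 4387 and 4298 RPM in the controls. Several encode proteins that repress translation in germline granules. ifet-1, a homolog of the eIF4E transporter, had 2553, 2555 and 2455 RPM against 283, 240 and 187 RPM (log2 fold change 3.41 ± 0.14). The DEAD-box helicase cgh-1 had 3952, 3213 and 3611 RPM against 905, 856 and 762 RPM, a smaller log2 fold change of 2.1 ± 0.12 from a higher control value. The Lsm-domain protein car-1 rose by 2.55 ± 0.14 and the La-related protein larp-1 by 2.53 ± 0.14. The smallest change in the list was that of ncl-1, a TRIM-NHL protein, with 1550, 1387 and 1600 RPM against 354, 479 and 453 RPM (1.80 ± 0.13).

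Structural genes of meiotic chromosomes had the highest median change of the lists. The synaptonemal complex joins paired homologs, and HORMA-domain proteins and cohesins build the chromosome axis on which it assembles. All 13 members tested were higher (13 with TMM, 12 with DESeq2), with a median log2 fold change of 3.62, and 3 more were below the minimum. The central-region protein syp-1 had 527, 496 and 510 RPM with FBF-2 and 0, 28.2 and 7.19 RPM in the controls. The other central-region genes were also separated: syp-4 changed by 4.32 ± 0.29, syp-2 by 3.56 ± 0.38 and syp-3 by 3.18 ± 0.42. Among the axis genes, htp-1 had 879, 865 and 861 RPM against 35.4, 42.3 and 43.1 RPM and him-3 had 538, 496 and 485 RPM against 42.4, 38.8 and 43.1 RPM. The cohesin subunits rec-8 and coh-4 rose by 3.67 ± 0.28 and 4.08 ± 0.28. htp-1 and htp-2 are near-identical copies, as are coh-3 and coh-4, so the share of each is uncertain. The smallest change was that of cra-1, at 1.66 ± 0.29.

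Recombination and pairing RNAs were mostly higher as well. Of 12 recombination genes tested, 11 were higher (9 with TMM) and 0 lower, with a median log2 fold change of 2.18, and 11 further genes of the list were below the minimum. him-5, needed for breaks on the X chromosome, had 184, 118.5 and 177 RPM with FBF-2 and 0, 3.52 and 7.19 RPM in the controls. The controls of him-5 held 2 counts in all, giving a ratio of 47.6 with a counting interval of 13 to 396. The strand-exchange protein rad-51 rose by 3.06 ± 0.39, the checkpoint kinase chk-2 by 1.74 ± 0.35 and the crossover protein msh-5 by 2.28 ± 0.38. rad-50 had 93.96, 17.6 and 63.5 RPM against 49.5, 38.8 and 21.6 RPM, and its libraries overlapped (adjusted p = 0.069). Of 8 homolog-pairing genes, 6 were higher (4 with TMM), among them the zinc-finger protein zim-2 at 131, 65.9 and 83.9 RPM against 0, 14.1 and 0 RPM. The nuclear lamin lmn-1 was not called, with 145, 105 and 156 RPM against 149, 109 and 79.1 RPM.

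Every tested regulator of the decision to enter meiosis was called higher with library-size scaling, though not with every scaling. Of 9 tested, 9 were higher (7 with TMM), with a median of 2.55. Beside gld-1, the F-box gene prom-1 had 307, 220 and 317 RPM with FBF-2 and 28.3, 7.05 and 14.4 RPM in the controls (4.30 ± 0.35). gld-2, the cytoplasmic poly(A) polymerase, had 920, 825 and 825 RPM against 92.0, 151.5 and 165 RPM (2.62 ± 0.18). Its partner rnp-8 rose by 2.68 ± 0.26 and the Nanos homolog nos-3 by 1.64 ± 0.23, the latter with a TMM value of 1.00 that did not pass. The weakest was nos-1, with 66.6, 35.1 and 70.3 RPM against 28.3, 24.7 and 21.6 RPM (1.29 ± 0.41, adjusted p = 0.0059). It was not called with TMM, with DESeq2, with the replicate block or without ribosomal, transfer and mitochondrial RNAs.

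Stem cell and Notch genes were partly enriched. GLP-1/Notch signaling from the niche keeps germ cells in the stem cell state and activates sygl-1 and lst-1. Of 12 genes tested, 9 were higher (6 with TMM) and 0 lower, with a median of 1.65, and lin-12 and lag-2 were below the minimum. sygl-1 had 62.6, 48.3 and 68.0 RPM against 28.3, 24.7 and 7.19 RPM, a rise of 1.52 ± 0.43. The receptor glp-1 had 99.8, 101 and 90.7 RPM against 42.4, 38.8 and 71.9 RPM, and its log2 fold change of 1.00 ± 0.31 lay at the threshold and was not called with TMM. For lst-1 the libraries overlapped, at 62.6, 96.6 and 109 RPM against 63.7, 35.2 and 57.5 RPM (0.85 ± 0.32, adjusted p = 0.02). In contrast, the Notch ligand apx-1 had 528.5, 395 and 490 RPM against 56.6, 67.0 and 57.5 RPM (2.94 ± 0.22).

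Sex-determination RNAs included enriched members and members that were not called. Of 13 tested, 7 were higher (5 with TMM) and 0 lower, and 7 of the 20 in the table were below the minimum. The 7 were fog-1, gld-1, puf-8, fem-2, fem-3, nos-3 and rpn-10. The phosphatase fem-2 had 141, 127 and 145 RPM against 42.4, 28.2 and 14.4 RPM (2.28 ± 0.33). Neither tra-2 nor tra-1, both of which promote female fate, was called, and tra-3 was below the minimum. The receptor tra-2 had 127, 118.5 and 104 RPM against 77.8, 49.3 and 79.1 RPM (0.86 ± 0.28, adjusted p = 0.0073), and the Gli-family factor tra-1 had 64.6, 48.3 and 79.3 RPM against 42.4, 67.0 and 28.8 RPM (0.38 ± 0.33).

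PUF RNAs other than fbf-1 and fbf-2 were also recovered. Of 11 PUF genes tested, a count that includes fbf-1 and fbf-2, 8 were higher (8 with TMM) and 0 lower with library-size scaling. Both fbf-1 and fbf-2 are among the 8. puf-8, which acts with FBF in germline fate, had 313, 263 and 242.5 RPM against 35.4, 28.2 and 43.1 RPM (3.01 ± 0.28). The oocyte PUF gene puf-5 had 922, 623 and 805 RPM against 191, 159 and 187 RPM (2.18 ± 0.17). puf-9 stood at the other end, with 78.3, 65.9 and 70.3 RPM against 77.8, 106 and 108 RPM (-0.44 ± 0.27), and was the only PUF gene called lower with TMM (-1.1). puf-3 and puf-11, and puf-6, puf-7 and puf-10, are close copies and uncertain in their shares.

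Other translational regulators of the germline varied widely. Of 17 CPEB, DAZ and maternal regulators, 12 were higher (9 with TMM) and 0 lower. The highest log2 fold changes were those of cpb-3, fog-1, gld-1 and cpb-1. cpb-1, a CPEB-family gene like cpb-3 and fog-1, had 427, 233 and 367 RPM against 28.3, 28.2 and 7.19 RPM (3.92 ± 0.32). daz-1, needed for oogenesis, rose by 3.18 ± 0.23, and lin-41, a TRIM-NHL regulator of oocyte maturation, had 1298, 1049 and 1133 RPM against 184, 159 and 93.4 RPM (2.97 ± 0.17). Among maternal regulators of oocytes and embryos the values ranged widely. pie-1 rose by 2.95 ± 0.33 and mex-1 by 1.84 ± 0.24, both also with TMM. oma-1 rose by 1.34 ± 0.24 and mex-5 by 1.32 ± 0.16, neither of which passed with TMM. pos-1 had 260, 220 and 231 RPM against 219, 187 and 216 RPM, and spn-4 had 286, 325 and 354 RPM against 290, 296 and 266 RPM, neither called.

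Cell-cycle RNAs included many enriched cyclins and mitotic regulators. Of 18 cyclins, CDKs and M-phase kinases, 15 were higher (9 with TMM), with a median of 1.81. The Polo-like kinase plk-3 led with 1417, 1076 and 1360 RPM against 77.8, 84.6 and 50.3 RPM. cyclin E (cye-1) had 405, 290 and 365 RPM against 84.9, 38.8 and 79.1 RPM (2.55 ± 0.25), and cyclin B (cyb-1) had 640, 448 and 517 RPM against 141.5, 116 and 137 RPM (2.08 ± 0.19). cyb-3 was at 290, 268 and 274 RPM against 255, 257 and 208 RPM and was not called (0.20 ± 0.18). Of 12 DNA replication genes, 5 were higher (4 with TMM), near the share of all RNAs, with a median of 0.80. The 5 were the licensing factors cdt-1 (3.14 ± 0.28) and cdc-6 (2.5 ± 0.35), orc-3, mcm-3 and pcn-1. The other MCM helicase subunits were not called, and mcm-2 had 62.6, 70.2 and 90.7 RPM against 120, 88.1 and 57.5 RPM. The difference between the lists was not tested.

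RNAs of the RAS to MPK-1 pathway, which drives pachytene progression and oocyte maturation, were higher for 7 of 8 genes tested (6 with TMM). The ERK kinase mpk-1 had 574, 557.5 and 521 RPM against 84.9, 123 and 35.9 RPM (2.60 ± 0.21). Its phosphatase lip-1 averaged 493 ± 56.5 RPM with FBF-2 and 79.5 ± 32.0 RPM in the controls (SD, n = 3 each), and its log2 change was 2.76 ± 0.22. gck-1, a germinal center kinase that restrains MPK-1 in the germline, had 1225, 1084 and 1077 RPM against 92.0, 84.6 and 43.1 RPM (3.89 ± 0.19). Thus both activating and restraining members were among the 7. sos-1 had 50.9, 43.9 and 54.4 RPM against 56.6, 52.9 and 43.1 RPM.

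In germline granules and small-RNA pathways, enrichment varied from gene to gene. Of 11 P granule genes, 8 were higher (5 with TMM), with pgl-1 at 444, 452 and 446.5 RPM against 49.5, 77.5 and 108 RPM (2.51 ± 0.22) and the helicase glh-1 at 1.65 ± 0.23. Of 10 Argonautes, 6 were higher (5 with TMM), led by wago-4 and ppw-2. ppw-2 had 1856, 1348 and 1707 RPM against 113, 52.9 and 158 RPM (4.10 ± 0.20). wago-1 had 157, 92.2 and 147 RPM against 149, 148 and 71.9 RPM (0.11 ± 0.24), and alg-1, a microRNA Argonaute, had 95.9, 87.8 and 54.4 RPM against 84.9, 120 and 129 RPM (-0.52 ± 0.27). Neither was called, though alg-1 was lower with TMM. Of 13 processing-body and mRNP genes, 8 were higher (5 with TMM), and the Y-box genes cey-1 and cey-4 were not called, at 0.25 ± 0.16 and -0.31 ± 0.23.

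Among RNAs for the machinery that acts on messenger RNA tails and caps, deadenylase RNAs were partly enriched. Of 8 deadenylase genes, 5 were higher (3 with TMM), the most changed being the PAN subunits panl-2 at 491, 246 and 399 RPM against 63.7, 81.1 and 57.5 RPM (2.47 ± 0.25) and panl-3 (2.37 ± 0.25). The CCR4-NOT scaffold let-711 rose by 1.06 ± 0.16 and did not pass with TMM. ntl-4 had 143, 127 and 129 RPM against 141.5, 134 and 137 RPM (-0.03 ± 0.22). Of 8 initiation factors and poly(A)-binding proteins, 2 were higher, the eIF4E genes ife-1 and ife-3, and neither passed with TMM. The poly(A)-binding protein gene pab-1 had 511, 514 and 512 RPM against 658, 662.5 and 654 RPM, with no overlap (-0.36 ± 0.13, adjusted p = 0.017), and pab-2 had 421, 452 and 467 RPM against 651, 747 and 647 RPM (-0.63 ± 0.14, adjusted p = 9.3e-05). Both changes were smaller than the fold required, and both genes were lower with TMM.

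Eggshell and oocyte-surface RNAs, which are made in growing oocytes, were higher for 10 of 18 genes (8 with TMM). The leucine-rich repeat protein egg-6 had 924, 658.5 and 859 RPM against 77.8, 120 and 137 RPM (2.86 ± 0.19), and the chondroitin proteoglycan cpg-1 had 1257, 1098 and 1106 RPM against 354, 285 and 309 RPM (1.90 ± 0.14). The yolk receptor rme-2 had 207.5, 140.5 and 229 RPM against 177, 180 and 172.5 RPM and was not called. perm-2, an eggshell permeability-barrier gene, had 376, 439 and 388 RPM against 573, 507 and 460 RPM, with no overlap (-0.37 ± 0.15, adjusted p = 0.026), and was lower with TMM. Of 10 germline chromatin regulators, 4 were higher (2 with TMM), namely set-2, met-2, mes-3 and mes-6.

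**Figure D3:**
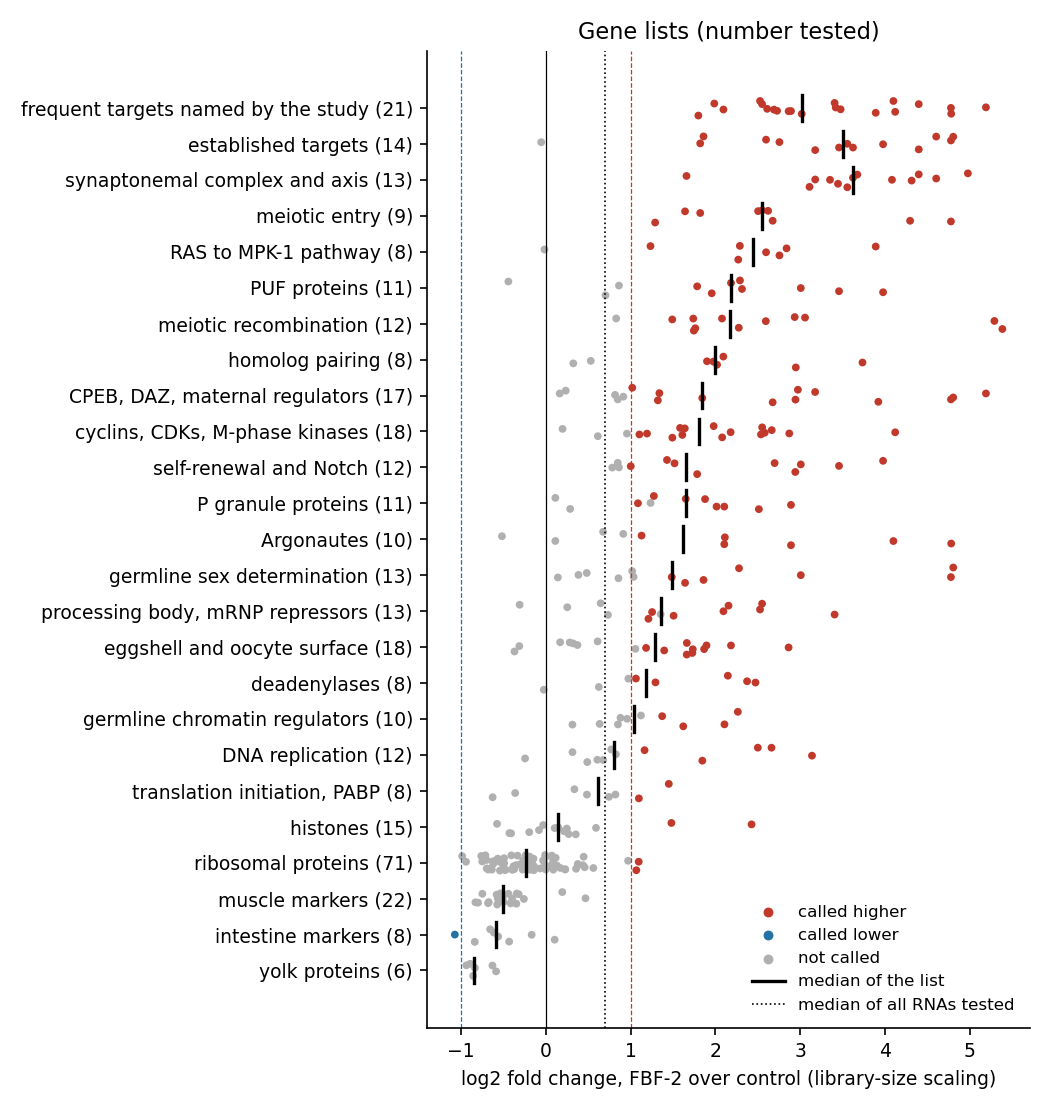
log2 fold change of FBF-2 over control (x axis, library-size scaling) for every tested member of 25 gene lists (rows, number tested in parentheses), with a thick bar at each list's median, a dotted line at the median of all RNAs tested (0.70) and dashed lines at the fold required. The medians of the meiotic, PUF and established-target lists lie to the right, and those of the muscle, intestine and yolk lists lie left of 0.

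Most RNAs of intestine and muscle lay at or below the controls. Whole animals were lysed, and in such bulk samples fewer cells of a type and less RNA per cell cannot be told apart. The 6 yolk protein genes, which are expressed in the intestine, had 9553, 9114 and 9910 RPM together with FBF-2 and 16420, 15890 and 15550 RPM in the controls. All 6 lay below the controls without overlap, as did 12.7% of all RNAs tested. The 6 were lower by 0.59 to 0.94 on the log2 scale, so that 0 passed the fold required in edgeR (6 at an unadjusted p under 0.05). With TMM and with DESeq2 all 6 were lower. vit-6, for example, had 2829, 2849 and 2700 RPM against 4301, 4183 and 4104 RPM (-0.59 ± 0.10). Of 22 muscle genes, 0 were called in either direction (1 higher and 17 lower at an unadjusted p under 0.05 in edgeR, 16 lower with DESeq2), and 16 were lower with TMM. The myosin heavy chain unc-54 had 1822, 1980 and 1908 RPM against 3247, 3242 and 3091 RPM (-0.75 ± 0.10). The 1 higher was the actin act-2, with 593, 575 and 589 RPM against 474, 430 and 367 RPM, without overlap. Its change of 0.47 ± 0.14 (adjusted p = 0.0045) was smaller than the fold required. Of 8 intestine genes, 1 was lower, the actin act-5 (-1.07 ± 0.25), and 6 with TMM. Actin and yolk genes have near-identical copies, so single members are uncertain. The 1 neuronal marker tested, the synaptobrevin gene snb-1, was higher (448, 386 and 392.1 RPM against 113, 106 and 108 RPM). The 19 other neuronal markers in the list were below the minimum.

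RNAs of ribosomal proteins, which abound in most cells, changed little. Of 71 ribosomal protein genes, 2 were higher, rps-29 and rps-2, and 0 lower, with a median log2 fold change of -0.24 (20 lower at an unadjusted p under 0.05 in edgeR, 26 with DESeq2). With TMM, 27 were lower and 0 higher. rps-2 had a log2 fold change of 1.07 ± 0.20 and rps-29 one of 1.1 ± 0.22, values that fell to 0.42 and 0.45 with TMM. Of 15 histone genes tested, 2 were higher, the replication-independent histone H3 genes his-72 (566, 452 and 501 RPM against 70.7, 113 and 86.3 RPM) and his-74 (1.48 ± 0.32). The other 13 were not called. With TMM, 1 histone gene was higher and 3 were lower. Among 5 long intergenic noncoding RNAs, 1 was higher, linc-7, with 139, 158 and 88.4 RPM against 7.07, 31.7 and 21.6 RPM. With TMM, 3 of the 5 were lower.

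Few structured RNAs were called with library-size scaling, and more were lower with TMM. Of 74 small nucleolar RNA genes, 0 were higher (2 at an unadjusted p under 0.05 in edgeR, 0 with DESeq2) and 2 lower (25 with TMM, 22 with DESeq2). Of 29 mitochondrial genes, 0 were called (0 higher and 7 lower at an unadjusted p under 0.05 in edgeR, 0 higher and 6 lower with DESeq2). With TMM, 6 mitochondrial genes were lower. Of 111 transfer RNA genes, 5 were lower (34 with TMM, 31 with DESeq2) and 1 higher. The higher one, ZK1010.t1, stood far from the others at 458, 553 and 444 RPM against 14.2, 35.2 and 43.1 RPM (3.89 ± 0.26). It lies on chromosome III from 13009423 to 13009499 and shares no exon bases with another annotated gene. Transfer RNA genes have many near-identical copies, so counts of single loci are uncertain.

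The RNAs called lower included cuticle collagens and transfer RNAs. Of the 52, 39 were protein coding and 5 were transfer RNAs. The libraries did not overlap for 50, and the calls rest on the same values. Over all RNAs tested, 12.7% lay below the controls without overlap. RNAs present mainly in the controls could not pass the count minimum: 6 RNAs had a control mean of at least 20 counts and an FBF-2 mean under 20, and all 6 were lower without the minimum, so 52 is a partial count. Of 27 cuticle collagen genes, a family singled out after its values were seen, 7 were lower in edgeR with library-size scaling, 27 with TMM and 27 with DESeq2. All 27 log2 fold changes were below 0, and the libraries lay below the controls without overlap for 27. col-81 had 68.5, 87.8 and 111 RPM with FBF-2 and 269, 285 and 331 RPM in the controls (-1.72 ± 0.21). The transfer RNA C38C6.t1, with 88.1, 110 and 150 RPM against 474, 546 and 474 RPM, had the lowest log2 fold change among the RNAs tested, -2.12 ± 0.19. Of the 6 RNAs that the minimum left out, the transfer RNA C29F7.t2 had 3.92, 8.78 and 20.4 RPM against 743, 793 and 676 RPM (-6.02 without the minimum), and F22H10.t1 had 15.7, 17.6 and 22.7 RPM against 198, 225.5 and 180 RPM (-3.43). K08D12.6 and F11E6.3, both with sequence names, had more counts. K08D12.6 had 756, 768 and 814 RPM against 1846, 2009 and 1876 RPM, and F11E6.3 had 601, 588 and 594 RPM against 1203, 1329 and 1531 RPM.

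The chromosomes differed in how many of their RNAs were recovered. Of the protein-coding RNAs on autosomes, 1111 of 2423 were higher (45.9%), from 42.5% on chromosome IV to 48.5% on chromosome I. On the X chromosome, 2 of 152 were higher (1.32%, and 6 at an unadjusted p under 0.05 in edgeR) and 6 were lower. The median log2 fold change was 0.93 on the autosomes and -0.46 on X. With TMM, 25.8% of autosomal RNAs were higher and 11.3% lower, against 0 higher and 61.2% lower on X (0 higher with DESeq2 too). The 2 X-linked RNAs called higher, named after their values were seen, were meg-1, a P granule gene with 143, 136 and 154 RPM against 49.5, 70.5 and 50.3 RPM, and mrp-4, an ABC transporter gene with 296, 162 and 270 RPM against 141.5, 95.2 and 50.3 RPM. Neither passed with TMM. Most X-linked genes are silent or weakly expressed in the germline, and 5 of the 6 yolk genes and 9 of the 22 muscle genes tested are X-linked. Without the yolk, intestine, muscle and hypodermis lists, 2 of the remaining 135 X-linked RNAs were higher and the median was -0.42. In these counts, the abundance of an RNA and its binding by FBF-2 cannot be told apart.

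**Figure D4:**
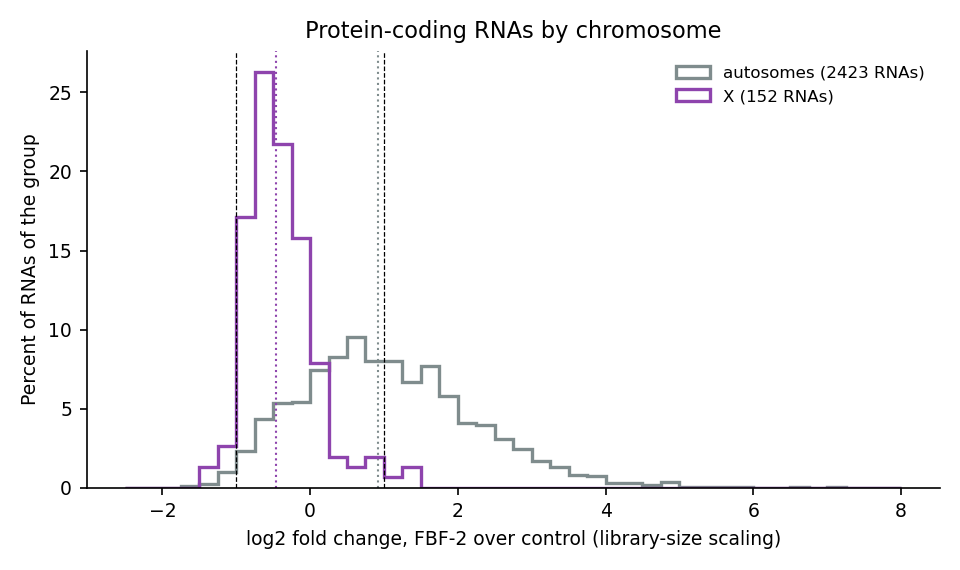
Percent of protein-coding RNAs (y axis) by log2 fold change of FBF-2 over control (x axis, equal bins) for 2423 autosomal RNAs (gray) and 152 X-linked RNAs (purple), with dotted lines at the medians of 0.93 and -0.46 and dashed lines at the fold required. The X-linked distribution lies almost wholly below the upper dashed line.

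Features of the RNAs themselves were described along the range of enrichment, with genes as points and therefore without a test. Across 2534 protein-coding RNAs with an annotated 3′UTR, the log2 fold change fell with the control value (Spearman correlation -0.71), with which it shares the control counts, and was weakly related to FBF-2 RPM (0.16) and to the length of the longest annotated 3′UTR (0.08). The median longest 3′UTR was 192 bases for RNAs with a log2 fold change under 0, 302 for 0 to 1, 303 for 1 to 2, 266 for 2 to 3 and 198 for over 3. The median control level fell from 151 RPM in the first of these classes to 16.6 RPM in the last, while the median FBF-2 value rose from 107 to 201 RPM. At the count minimum, the 117 RNAs with means of 20 to 21 counts had a median log2 fold change of 0.48, and the 109 RNAs just under it had 0.38.

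The same protein was also assayed against controls in spermatogenic germlines, from animals with the gain-of-function allele fem-3(q22) that make only sperm. The 2 comparisons share no library. Those FBF-2 libraries were sequenced in lane 1 and their controls in lane 3, and held 673361 to 1133534 and 59621 to 145625 counts. Of 6060 RNAs tested there, 2323 were higher (38.3%) and 375 lower (6.19%). Some RNAs abundant elsewhere had no counts in the spermatogenic controls. rrn-1.2 averaged 0 RPM there, 40030 with spermatogenic FBF-2 and 110800 in the oogenic controls, and the histone gene his-65 averaged 0 RPM against 106.5 in the oogenic controls. Ambiguous reads were 1.525% to 1.928% of these controls and 0.7059% to 0.7347% of the spermatogenic FBF-2 libraries. Whether these controls were counted differently was not tested. Of the 1150 RNAs called higher in oogenic germlines, 1148 could be tested in spermatogenic germlines and 1077 were higher there as well, which is 93.7% of the oogenic and 46.4% of the spermatogenic calls. Of the 2887 RNAs tested in both, a further 488 were called higher in spermatogenic but not in oogenic germlines. With the 1077, they made the share higher in spermatogenic germlines larger among RNAs tested in both than the 38.3% over all 6060. Over the RNAs tested in both, the median log2 fold change in spermatogenic germlines was 1.31, and over the oogenic calls it was 2.61. For gld-1 the log2 fold changes were 4.78 in oogenic and 4.98 in spermatogenic germlines, for syp-1 4.98 and 4.92, and for ifet-1 3.41 and 3.42. Other RNAs had values further apart, such as wago-4 with 4.78 and 7.13, apx-1 with 2.94 and 5.74, and him-3 with 3.62 and 5.34. The value was higher in spermatogenic than in oogenic germlines for 895 of the 1148 RNAs. The share over all RNAs tested in both was not counted, so the 895 cannot be read as particular to the called RNAs. The median over all RNAs tested in both, 1.31 in spermatogenic germlines, also lay above the 0.70 over all RNAs tested in oogenic germlines. For egl-4 the log2 fold changes were -0.06 and -0.07.

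The interaction of antibody and germline was tested over 4657 RNAs without ribosomal, transfer and mitochondrial RNAs. The log2 ratio of FBF-2 to control was greater in oogenic germlines for 101 RNAs (2.17%) and greater in spermatogenic germlines for 109 (2.34%) at an adjusted p under 0.01, around a median difference of -0.34. Of the 101, 2 (1.98%) were themselves called higher over the oogenic controls, and 23 of the 109 (21.1%), against 24.7% of all RNAs in this test. T23D8.3 was 1 of these 2: it had 110, 75.1 and 111 RPM of the remaining genes with FBF-2 and 29.5, 7.75 and 48.8 in the oogenic controls, against means of 77.2 and 92.9 in the spermatogenic libraries. Its interaction was 2.53 ± 0.70 on the log2 scale. The control libraries move with this comparison. The collagen RNA col-94, for example, averaged 576 RPM of the remaining genes in the oogenic controls and 38.8 in the spermatogenic controls. The part of the control levels in the interaction was not tested.

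**Figure D5:**
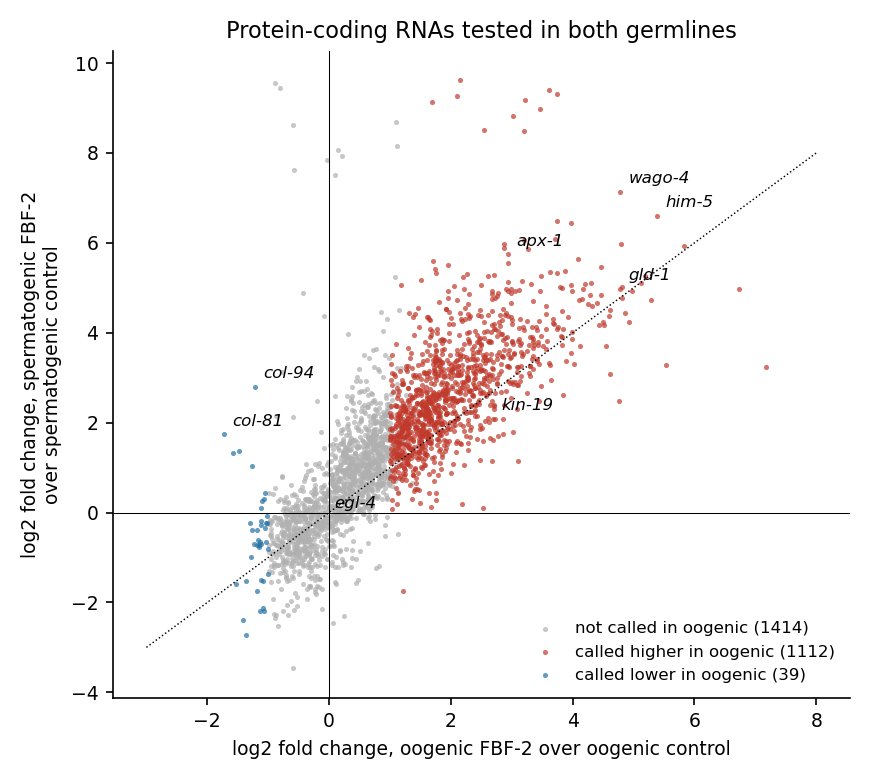
log2 fold change of FBF-2 over control in oogenic (x axis) and spermatogenic (y axis) germlines for the 2565 protein-coding RNAs with both values, colored by the call in oogenic germlines; the dotted line marks equal values. Over all RNA classes, not only the protein-coding RNAs shown, 1077 of the 1148 oogenic calls tested in both were called higher in both germlines. The collagens col-81 and col-94 lie below 0 on the x axis and above 0 on the y axis.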

How the data were processed

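FBF-2 iCLIP and no-antibody control libraries were compared from the count table that the authors deposited. Its values are counts: per the paper's methods, the authors split reads by barcode, clipped linkers, aligned reads with STAR, removed multi-mapping reads and low-scoring alignments, collapsed duplicates by barcode and assigned reads to genes with HTSeq. The submitters' processing notes also name Novoalign. The genome build, annotation and strand setting of the counting are not given in the sources used here, so overlapping and antisense genes are uncertain, as are near-identical copies. Reads assigned to no gene (12.84% to 15.44% of each library used) or to several (0.5681% to 0.8735%) were left out. Per the paper, the FBF-2 libraries are 3 biological replicates and 3 control replicates were made in parallel. Whether the controls came from separate cultures is not stated, so p-values measure the spread between these libraries, which may be partly technical.

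Testing was limited to RNAs that averaged 20 counts or more across the FBF-2 libraries and used edgeR 4.0.16 (robust quasi-likelihood, R 4.3.3) without further normalization factors, and p-values were adjusted by Benjamini-Hochberg over all 2920. Calls needed an adjusted p below 0.01 and a change of more than 1 on the log2 scale. SEs were taken from the fold change and its F statistic. RPM is counts per 1000000 counts on genes, and intervals and floors cover counting error only. Gene names were matched to Ensembl 115 and RefSeq tables, by name for 22204 of 26709 genes, by sequence name for 3300 and by RefSeq name for 831, and 374 stayed unmatched. Positions are WBcel235. No genome sequence was used, so no binding element was searched.

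Alternatives were TMM, DESeq2 1.42.0, other controls, count minimums and fold thresholds, thinned counts, a replicate block and each library left out. Leaving out genes that share exon bases was added after seeing the data. Scripts were tested on simulated data. Members and gene lists were chosen with earlier results of these data known. Named genes are the established and frequent targets, the 12 highest and lowest by the ratio between nearest libraries, up to 4 members of each list (highest, lowest and most counts), and 12 interactions. Further list members were named for their known roles, after their values were seen.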

Additional observations from a re-analysis of the deposited data

Results flagged for a closer look

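The log2 ratio of FBF-2 to control differed between oogenic and spermatogenic germlines for 12 RNAs that were picked out by the test of the interaction in edgeR. Values are the oogenic minus the spermatogenic log2 ratio. It was greater in oogenic germlines for 21ur-328 (3.17), F53F4.13 (2.94), fat-5 (2.61), H40L08.2 (2.56), T23D8.3 (2.53) and C53C7.5 (2.44). Of these, T23D8.3 was called higher with FBF-2 in oogenic germlines. For the 5 others, the FBF-2 mean without ribosomal, transfer and mitochondrial RNAs lay below the control mean in both germlines, so a greater value is a smaller deficit. C53C7.5, for example, had means of 813 and 1956 RPM on that scale in oogenic and 316 and 4281 in spermatogenic libraries. The log2 ratio was greater in spermatogenic germlines for col-12 (-4.92), col-94 (-3.95), col-125 (-3.85), gfi-1 (-3.82), col-81 (-3.41) and mtr-4 (-3.39). On the same scale, gfi-1 had a mean of 419 RPM with FBF-2 against 992 in the oogenic controls, and 739 against 112 in spermatogenic libraries. Mean control levels differed between the germlines for all 12, but the controls overlapped for H40L08.2. On the same scale its controls had 206, 357 and 195 RPM in oogenic and 566, 338 and 212 RPM in spermatogenic libraries. The part of the control levels in these differences was not tested.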

How the results depend on the processing

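Scaling, the count minimum and the fold threshold each changed the counts of calls. TMM gave 645 RNAs higher and 473 lower, DESeq2, which changes the test too, gave 496 and 443, and leaving out ribosomal, transfer and mitochondrial RNAs gave 804 and 266. The RNAs higher numbered 258 with a minimum of 100 counts (526 tested), 510 after thinning to the smallest library (1075 tested) and 498 at a log2 fold change over 2. Fewer RNAs were tested in the first and second of these. The RNAs lower numbered 108 with a minimum of 5 counts, 110 with none, 11 with 100, 22 after thinning, 296 against the spermatogenic controls, 82 against all 6 controls, 1 at a log2 fold change over 2 and 250 with no fold minimum, and the cause was not tested. Leaving out 1 library at a time gave 946 to 1248 higher and 43 to 70 lower. Leaving out RNAs that share exon bases, added after seeing the data, gave 797 and 39. With the replicate block there were 1084 and 55. The library numbers did not meet the rule for pairing, since libraries of the same number deviated together with correlations of 0.057, 0.033 and 0.011. Each FBF-2 library correlated best with the control of its own number, but control replicate 3 correlated best with FBF-2 replicate 2 (0.021). The interaction gave 62 RNAs greater in oogenic germlines with a minimum of 100 counts, and 71 to 110 with 1 library left out. Those greater in spermatogenic germlines numbered 195 over all genes, 46 with DESeq2, 60 with a minimum of 100, 70 with none and 56 to 119 with 1 library left out, of which 71 without control spermatogenic replicate 1 and 56 without replicate 3. With unassigned reads in the denominator, the difference in share was -11.3 for ribosomal and -0.76 percentage points for mitochondrial RNA.

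Several RNAs turned direction, most of them not called. Their log2 fold changes with TMM, with DESeq2 and without the 3 abundant RNA classes, in that order, were -0.60, -0.52 and -0.39 for H40L08.2, -0.39, -0.38 and -0.18 for cey-1, -0.45, -0.44 and -0.24 for cyb-3, -0.40, -0.52 and -0.18 for fat-5, -0.32, -0.33 and -0.10 for lmn-1, -0.41, -0.42 and -0.19 for pos-1, -0.48, -0.49 and -0.25 for rme-2, -0.48, -0.47 and -0.27 for spn-4, -0.27, -0.23 and -0.05 for tra-1, and -0.54, -0.54 and -0.32 for wago-1. Against the spermatogenic controls, which also turned the called RNAs col-81, col-94 and ife-1, they were -0.70 for H40L08.2, -0.10 for cey-1, 0.16 for col-81, 2.1 for col-94, -2.07 for fat-5, 1.89 for gfi-1, -0.54 for ife-1, 1.35 for mcm-2 and 0.64 for ntl-4. Against all 6 controls they were -0.29 for H40L08.2, -1.21 for fat-5, 0.18 for mcm-2 and 0.21 for ntl-4. After thinning they were 0.12 for egl-4, 0.04 for ntl-4 and -0.10 for rme-2. With 1 library left out the values ranged from -0.09 to 0.49 for H40L08.2, -0.14 to 0.11 for egl-4, -0.17 to 0.79 for fat-5, -0.09 to 0.00 for ntl-4, -0.09 to 0.03 for sos-1 and -0.10 to 0.32 for wago-1. The planned search for PUF binding elements and its alternatives was not run.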
